A study of Mus musculus with 7 samples.

Results

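The region described here is the gene desert upstream of Sox9 on mouse chromosome 11, together with Sox9 itself and the sequence just beyond it. Its members are the binding events of FRA2, JUND and SOX2 listed on chromosome 11 from position 110700000 to 113100000 of the genome build mm9, a window of 2.4 Mb. It holds 152 of the 137595 events in the series: 86 of 64579 FRA2 events, 57 of 46583 JUND events and 9 of 26433 SOX2 events. The window was chosen by measured values, namely the FRA2 and JUND reads in the lines compared here. The differences between the lines inside it are therefore given as a description and without a test. The SOX2 events, the control reads and the spacing of the events did not enter that choice.

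The data come from chromatin immunoprecipitation followed by sequencing (ChIP-seq) in a pair of immortalised mouse cell lines derived from the striatum at embryonic day 14, strain 129SvEv/CD1. STHdhQ7 (Q7) has the genotype HdhQ7/Q7, and STHdhQ111 (Q111) has the genotype HdhQ111/Q111, in which both copies of the huntingtin gene carry the expanded glutamine tract. Both lines were used at fewer than 15 passages, grown at 33 °C and shifted to 39 °C for 2 days to stop division. Antibodies to Fra-2 and Jund, and IgG as the control antibody, were used in both lines, and an antibody to Sox2 in Q7. Each of the 7 samples pools replicates 1 and 2, so there is 1 sample per group, no spread between replicates and no test, and a difference between these cell lines and a difference between huntingtin genotypes cannot be told apart. Reads in events came to 3340554 (Q7) and 3498922 (Q111) for FRA2, 1660158 and 1609483 for JUND, and 1193914 for SOX2.

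Sox9 encodes a transcription factor of the high-mobility-group family that is required for cartilage and testis formation and, in the nervous system, acts in neural stem cells and astrocytes. It lies beside a very large gene-poor interval that contains distant enhancers active in different tissues. Rearrangements in the corresponding human interval cause campomelic dysplasia and related disorders without changing the coding sequence. FRA2 (gene Fosl2) and JUND (gene Jund) are a Fos-family and a Jun-family subunit of AP-1, a dimeric factor that binds many distal enhancers and responds to growth and stress signals. SOX2 is a related high-mobility-group factor that maintains neural progenitors.

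In the order of genes in the RefSeq annotation of a later build (GRCm38.p6), Map2k6, a kinase of the p38 pathway, is followed by the potassium channel genes Kcnj16 and Kcnj2 and then by the desert. Between Kcnj2 and Sox9 that annotation lists 7 genes, of which 5 are long noncoding RNA genes, 1 is a pseudogene and 1 is the predicted protein-coding gene Gm11677. Between Sox9 and Slc39a11, a gene of the zinc transporter family, it lists 9 genes, all long noncoding RNA genes. Distances below are measured from 112.64 Mb, the Sox9 start given to the nearest 10 kb and so uncertain by 5 kb. On this measure the window has 1.94 Mb upstream (the Kcnj2 side) and 0.46 Mb downstream of the Sox9 start. No mm9 annotation was used here, so events are given by position and distance and are not placed in exons, introns or UTRs. Expression of Sox9 was not analysed here.

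Across the desert, FRA2 and JUND reads were sparse in Q7 and abundant in Q111, while downstream of Sox9 both lines held similar totals. Median FRA2 reads at the 61 upstream events were 6.0 in Q7 (range 0 to 72.6) and 36.0 in Q111 (range 10 to 361). Their summed FRA2 reads were 625.8 in Q7 and 3789.9 in Q111, a ratio of 6.06. Median JUND reads at the 36 upstream events were 5.0 in Q7 (0 to 39) and 35.75 in Q111 (10 to 147), and sums of 224.9 and 1869.8 reads gave a ratio of 8.31. Among the 25 FRA2 events downstream of Sox9 the median was 43 reads in each line, with ranges of 2.7 to 228 in Q7 and 10 to 292 in Q111. There the summed reads differed little, at 1770.4 in Q7 and 1742.8 in Q111 for FRA2 and at 729.3 and 720.1 for the 21 JUND events.

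**Figure D1:**
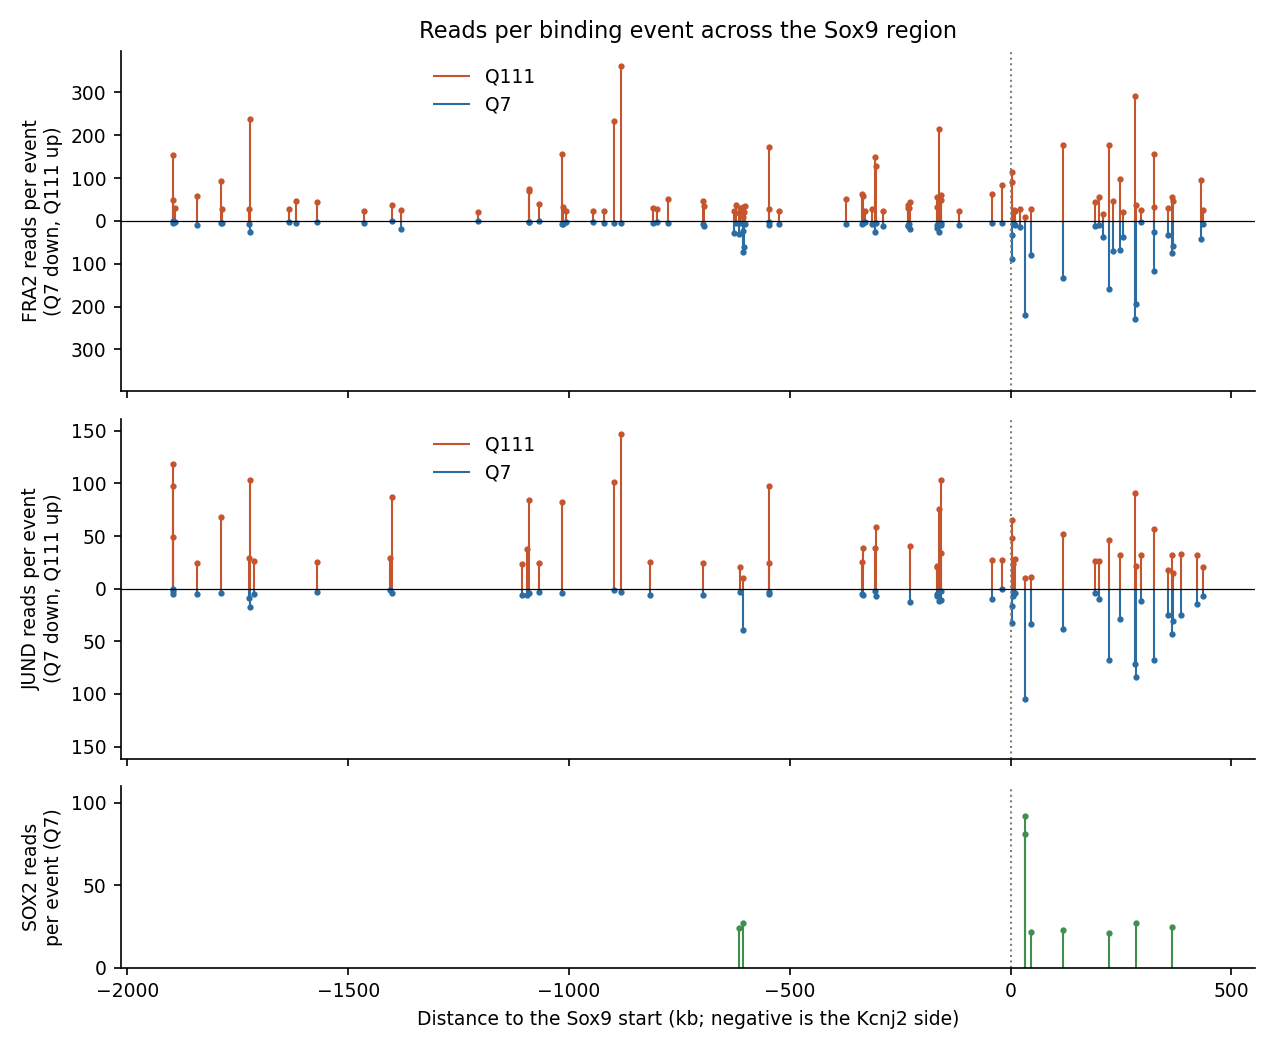
Reads assigned to each event (vertical axis) against the distance to the Sox9 start in kb (horizontal axis), for FRA2 and JUND with Q111 drawn upward and Q7 downward, and for SOX2 in Q7. Each stem is 1 event in 1 pooled library. Upstream, stems rise to 361 reads in Q111 and reach 72.6 in Q7, whereas downstream both directions are filled, and 7 of the 9 SOX2 stems lie downstream.

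Folds were computed on reads plus a pseudocount of 0.5 and scaled so that events marked present in both lines had a median ratio of 1, and an event was counted as different at a fold of at least 2. Of the 86 FRA2 events in the window 62 (72.1%) were at least 2-fold higher in Q111, 7 (8.14%) were at least 2-fold higher in Q7 and 17 lay within 2-fold. In the whole FRA2 table these shares were 24.2% and 22.6%. Of the 57 JUND events 43 (75.4%) were at least 2-fold higher in Q111 and 5 (8.77%) in Q7, beside 18.7% and 25.0% of the whole JUND table. The median log2 fold in the window was 2.15 for FRA2 (4.45-fold) and 1.90 for JUND (3.73-fold), and over all events it was 0.001 and -0.133. Without events under 40 reads over both lines, the events at least 2-fold higher in Q111 numbered 39 (FRA2) and 22 (JUND). The median log2 folds of the window were then 1.728 and 1.545. With a deposited −log10 q-value (the caller's score against control) of at least 5, the numbers were 42 and 19 and the medians 2.5 and 2.536. Shares of the window and of the whole tables were not computed under these filters. Because these reads chose the window, the shares describe it and support nothing further.

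The higher Q111 reads lay mostly on the desert side of Sox9. Upstream, 54 of 61 FRA2 events (88.5%) and 35 of 36 JUND events (97.2%) were at least 2-fold higher in Q111, with median folds of 6.50 and 5.83. Downstream, 8 of 25 FRA2 events (32.0%) and 8 of 21 JUND events (38.1%) were at least 2-fold higher in Q111. These shares were above the 24.2% and 18.7% of the whole tables, but they rest on few events. Beyond 10 kb downstream they were 5 of 21 FRA2 events (23.8%), near the whole table, and 5 of 17 JUND events (29.4%). At least 2-fold higher in Q7 were 4 and 4 of the downstream events, and 13 and 9 lay within 2-fold. Folds of at least 8 toward Q111 were reached by 26 FRA2 and 14 JUND events of the window (30.2% and 24.6%, beside 3.03% and 2.36% of the whole tables), and all of them were upstream. The authors' present marks followed the same division. Of the upstream FRA2 events 54 were marked present in Q111 alone, 2 in Q7 alone and 5 in both lines, and downstream 13 of 25 (52.0%) were marked in both. Of all FRA2 events 47.6% were marked in both lines, 26.7% in Q7 alone and 25.7% in Q111 alone. Of the upstream JUND events 35 were marked in Q111 alone, 1 in Q7 alone and 0 in both, beside 24.4%, 38.4% and 37.1% of the whole JUND table. The marks come from the same reads as the folds, and every listed event was marked in at least 1 line. The 54 FRA2 and 35 JUND upstream events marked in Q111 alone were thus listed through the line where their reads were high. Their marks are no separate support for their folds.

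**Figure D2:**
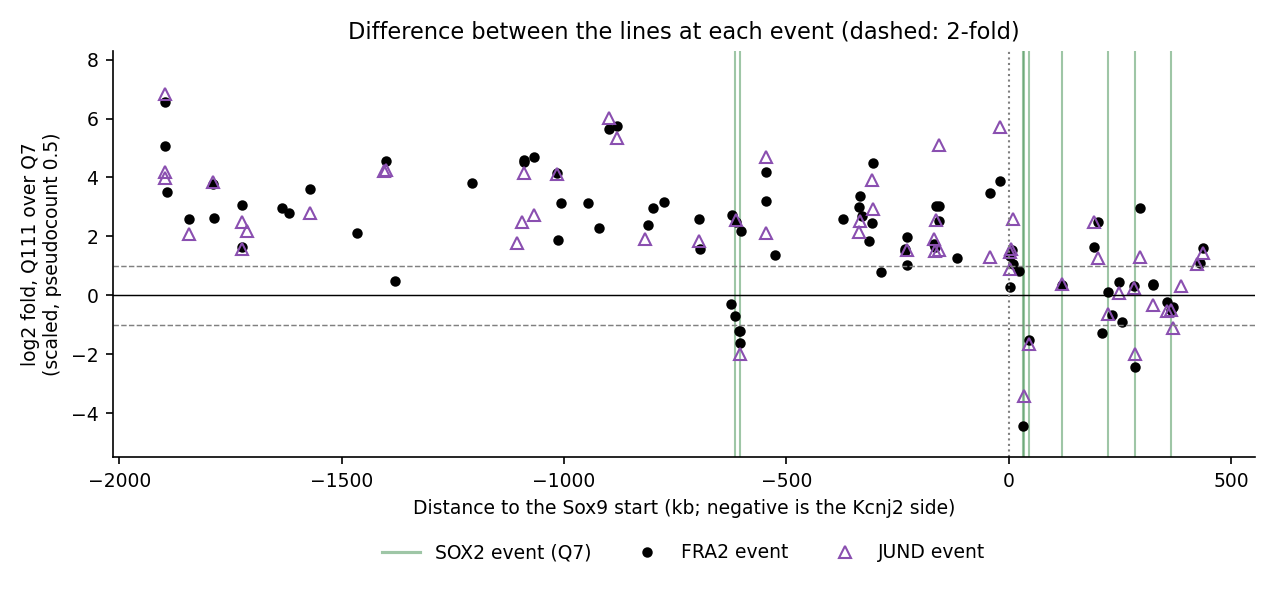
Scaled log2 fold of each FRA2 event (filled circles) and JUND event (open triangles), Q111 over Q7 with a pseudocount of 0.5 reads, against the distance to the Sox9 start in kb. Green lines mark SOX2 events in Q7 and dashed lines a fold of 2. Upstream points lie above the upper dashed line except between 625.3 and 604.8 kb and for FRA2 at 1379.8 and 288.2 kb, and downstream points scatter around 0. Events whose Q7 reads round to 0 are drawn with the pseudocount, so their height depends on it and is not a lower bound. The lower bounds of their folds are given in the text.

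In the part of the desert farthest from Sox9, from 1897.5 to 694.8 kb upstream, 30 consecutive FRA2 events over 1202.7 kb were all higher in Q111, and 29 of them by at least 2-fold. They summed to 168.0 reads in Q7 and 2119.0 in Q111. The event with the most Q111 reads, at position 111758502 (881.5 kb upstream), held 6 FRA2 reads in the Q7 library and 361 in the Q111 library, 53.9-fold more (95% interval 26.5 to 159.8). By reads in Q111 it ranked 382 in the whole FRA2 table, whose median event had 32.8. The JUND event beside it, at 111758523, held 3 and 147 reads, a ratio of 40.1 (15.6 to 228.5). Intervals are Clopper-Pearson intervals of the share of reads and cover counting error only, since PCR reads are not independent molecules.

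Another strong site lay 898.4 kb from the Sox9 start. FRA2 at 111741574 had 4 reads (Q7) and 232 (Q111), 50.03-fold (21.6 to 207.9). JUND at 111741589 had a single read (Q7) against 101 (Q111), a ratio of 64.3 whose interval, 16.9 to 3830, is wide because of the single Q7 read. Both sites thus held few reads in Q7 and were among the strongest of the desert in Q111.

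The end of the window nearest Kcnj2 held a cluster of events about 1897 kb from Sox9. FRA2 at 110742507 had 0 reads (Q7) and 48.1 reads (Q111), which is at least 15.5-fold higher against a floor of 3 reads for the Q7 library, while the two-sided interval starts at 12.1. The next FRA2 event, 298 bp away at 110742805, had 4 and 153.9 reads, 33.2-fold (14.3 to 138.6). Of the 3 JUND events there, the one at 110742653 had 0.5 reads (Q7), which rounds to 0, and 118.2 reads (Q111), at least 37.5-fold higher against the same floor, with an interval from 29.9. The JUND events on either side had 2.1 and 49.6 reads (110742405) and 5.4 and 97.2 reads (110742835). Events this close together can share fragments and are not independent sites.

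Between these ends the desert held further sites with the same direction. At 1723.3 kb upstream, FRA2 at 110916684 had 27 reads (Q7) and 238 (Q111), 8.40-fold (5.72 to 13.2), and JUND at 110916689 had 17 and 103, 5.62-fold. This site kept more reads in Q7 than most of the desert. JUND at 111239161 had 3.9 and 86.8 reads, 18.9-fold, at 1400.8 kb. At 1090.1 kb FRA2 at 111549851 had 2.3 and 69.5 reads (ratio 24.2, 9.04 to 285.4), and JUND at 111549966 had 4 and 84 reads, 17.9-fold. FRA2 at 111624663, 1015.3 kb upstream, had 8 and 156 reads, 17.8-fold (9.35 to 44.5). The exception to a 2-fold difference in this run of FRA2 events was 111260182, at 1379.8 kb, with 18 and 26 reads.

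A stretch of 20.5 kb, from 625.3 to 604.8 kb upstream of Sox9, interrupted the pattern. Of its 7 FRA2 events 5 were lower in Q111 and 2 were higher. The event at 112035236 had 60.4 FRA2 reads (Q7) and 20.1 (Q111), 3.05-fold higher in Q7 (1.84 to 5.43). The adjoining event at 112035124 had 72.6 and 31.9 reads, and the one at 112034224 had 23 and 10. The event at 112025248 had 30 and 19 reads, and that at 112014729 had 28.9 and 24. Interleaved with these were 2 events with the direction of the rest of the desert, with 5 and 37 reads at 112018141 and 5 and 31 at 112027053. JUND had 39 and 10 reads at 112035129, 3.96-fold higher in Q7 (2.01 to 9.21), and 3 and 21 reads at 112027010. Apart from 112035236 and 112035129, the FRA2 and JUND events of this stretch were picked out after their values had been seen. Outside the stretch, 52 of the 54 upstream FRA2 events were at least 2-fold higher in Q111. The stretch also held both SOX2 events of the desert.

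From there to the gene, 29 consecutive FRA2 events, from 602.5 kb upstream to 22.2 kb downstream, were higher in Q111, 26 of them by at least 2-fold, with sums of 389.9 reads in Q7 and 1776.9 in Q111. At 546.2 kb upstream, FRA2 at 112093778 had 8.6 and 171.8 reads, 18.3-fold (9.53 to 41.2), and JUND at 112093761 had 3.1 and 98, a 26.0-fold difference. At 305.2 kb, FRA2 at 112334794 had 5 and 128 reads, 22.6-fold (10.4 to 77.7). The site 162.9 kb upstream (112477121) kept 25 FRA2 reads in Q7 against 215 in Q111, 8.18-fold (5.49 to 13.2). JUND at 112483004, 157.0 kb upstream, had 2.4 and 103.5 reads, 34.1-fold. The last events before the gene had the same direction. FRA2 had 5 and 63 reads at 112598566 (41.4 kb) and 5 and 84 at 112619590 (20.4 kb, 14.9-fold, 6.70 to 51.4). JUND had 10 and 27 reads at 112598580 and 0 and 27 at 112619609, the last at least 8.56-fold higher in Q111 against the floor, with an interval from 6.50.

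Just downstream of the assumed Sox9 start lay a pair of sites followed by weaker ones. The pair had more Q7 reads than most desert events, though still fewer than in Q111. At 2.9 kb from the assumed start, FRA2 at 112642936 had 34 reads (Q7) and 90 (Q111), 2.54-fold (1.71 to 3.92), and JUND at 112642939 had 16 and 48, 2.80-fold. At 3.5 kb, FRA2 at 112643476 had 90 and 114 reads, 1.23-fold (0.922 to 1.64), an interval that includes 1, and JUND at 112643479 had 33 and 65 reads, 1.86-fold (1.21 to 2.94). The next JUND events, named after their values had been seen, had 7 and 23 reads at 112644966 (5.0 kb, 2.98-fold) and 4 and 28 at 112649480 (9.5 kb, 6.02-fold). Scaled by control reads, the log2 folds at 112642936 and 112642939 were 0.98 and 0.82, under 2-fold, and those of JUND at 112598580 and 113076326 were 0.65 and 0.79. With the start uncertain by 5 kb, these events cannot be assigned to the Sox9 promoter or to its gene body.

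Beyond the gene, the strongest events of Q7 appeared and the direction varied from site to site. The event 33.0 kb downstream was the most unequal one in favour of Q7. FRA2 at 112673047 had 220.8 reads (Q7) and 10 (Q111), 21.8-fold higher in Q7 (12.2 to 48.3), and JUND at 112673054 had 105 and 10, 10.6-fold higher in Q7 (5.77 to 23.7). At 45.7 kb, FRA2 at 112685659 had 79 and 28 reads, 2.88-fold higher in Q7 (1.87 to 4.66), and JUND at 112685656 had 34 and 11, 3.16-fold higher in Q7. At 284.6 kb, FRA2 at 112924637 had 194 and 37 reads, 5.36-fold higher in Q7 (3.79 to 7.92), and JUND at 112924652 had 84 and 22, 3.95-fold higher in Q7 (2.49 to 6.75).

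Between these lay strong events that differed by less than 2-fold. FRA2 at 112759091 (119.1 kb) had 133 and 176 reads, 1.28-fold higher in Q111. FRA2 at 112862546 (222.5 kb) had 159 and 178, 1.08-fold, and JUND at 112862544 had 68 and 46, 1.55-fold higher in Q7 (1.05 to 2.31). The event with the most FRA2 reads over both lines, 112922510 at 282.5 kb, had 228 and 292 reads, 1.24-fold, and its JUND neighbour 112922512 had 72 and 91, 1.20-fold. The next FRA2 event, at 112924637, was the one 5.36-fold higher in Q7. FRA2 at 112964683 (324.7 kb) had 116.9 and 156.5 reads, 1.30-fold, and JUND at 112964636 had 68 and 57. Scaling by control reads turned the log2 folds at FRA2 112759091, 112862546 and 112922510 to -0.006, -0.25 and -0.05 and at JUND 112922512 to -0.40. It also took FRA2 at 112643476, the event 3.5 kb from the Sox9 start, to -0.07, and the JUND values at 112862544 and 112964636 to -1.29 and -0.99. Thus neighbouring sites differed in direction downstream, whereas each run of events in the desert on either side of the 20.5-kb stretch kept 1 direction.

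**Figure D3:**
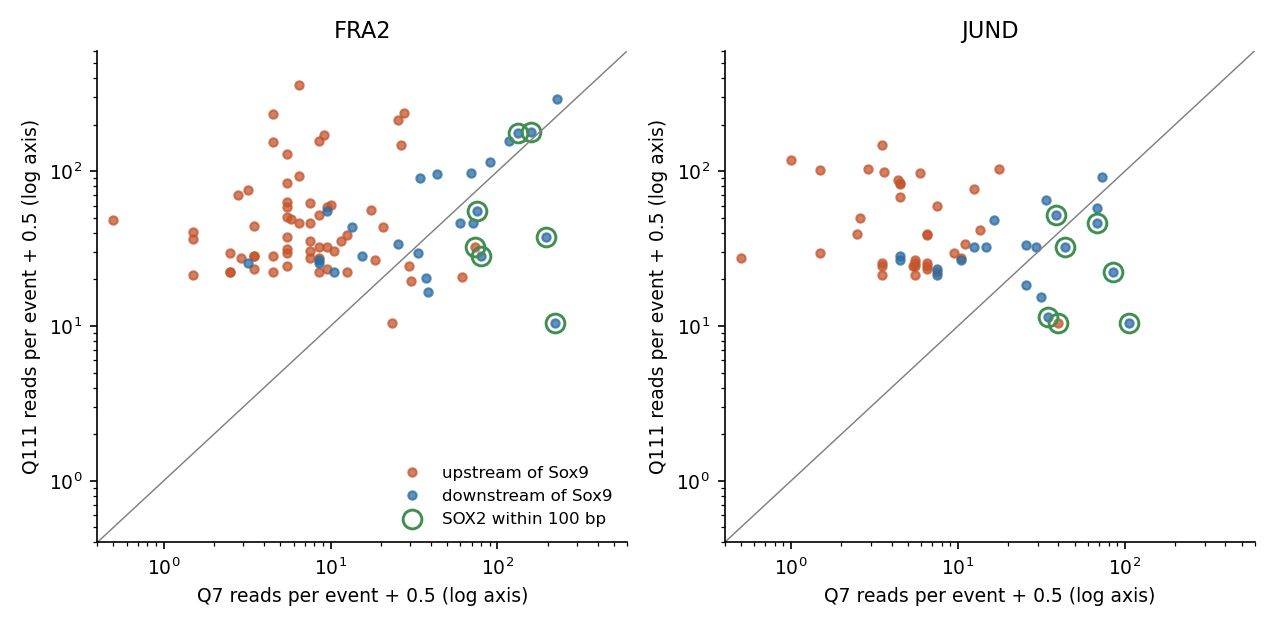
FRA2 and JUND reads in Q111 against those in Q7 for each event, both plus 0.5 and on log axes, with upstream events in orange, downstream events in blue and a green ring where a SOX2 event lies within 100 bp. The grey line is equality without scaling. Most upstream points lie at the left, at few Q7 reads and 10 to 361 Q111 reads, and no ringed point is at least 2-fold higher in Q111. All ringed points are events marked present in Q7, the line of the SOX2 sample.

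In bins of 200 kb, the ratio of summed FRA2 reads (Q111 over Q7, unscaled) was highest between 1000 and 800 kb upstream, at 31.7, and lowest within the desert between 800 and 600 kb upstream, at 1.42. The corresponding JUND ratios were 27.3 and 1.15. From 600 kb to the gene the 3 bins gave FRA2 ratios of 11.6, 5.42 and 6.84 and JUND ratios of 15.3, 6.15 and 6.60. The first 200 kb downstream gave 0.889 for FRA2 and 1.09 for JUND, and the next 200 kb 0.972 and 0.865. A single site carried the first of these bins: without 112673047 and 112673054, left out after their values had been seen, its ratios were 1.38 (FRA2) and 1.86 (JUND). Of its 9 FRA2 events 4 were at least 2-fold higher in Q111 and 2 in Q7, with a median log2 fold of 0.83. The bin between 800 and 600 kb upstream likewise had a median FRA2 log2 fold of 1.89, above its ratio of sums, since its reads in Q7 lay mostly in the 20.5-kb stretch. The bin from 1400 to 1200 kb upstream held no JUND event and a FRA2 ratio of 2.47. JUND events were absent over 295.4 kb there, from 1400.8 to 1105.5 kb upstream, the longest such gap of the window, and the longest gap between FRA2 events, 173.0 kb, began at 1379.8 kb.

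**Figure D4:**
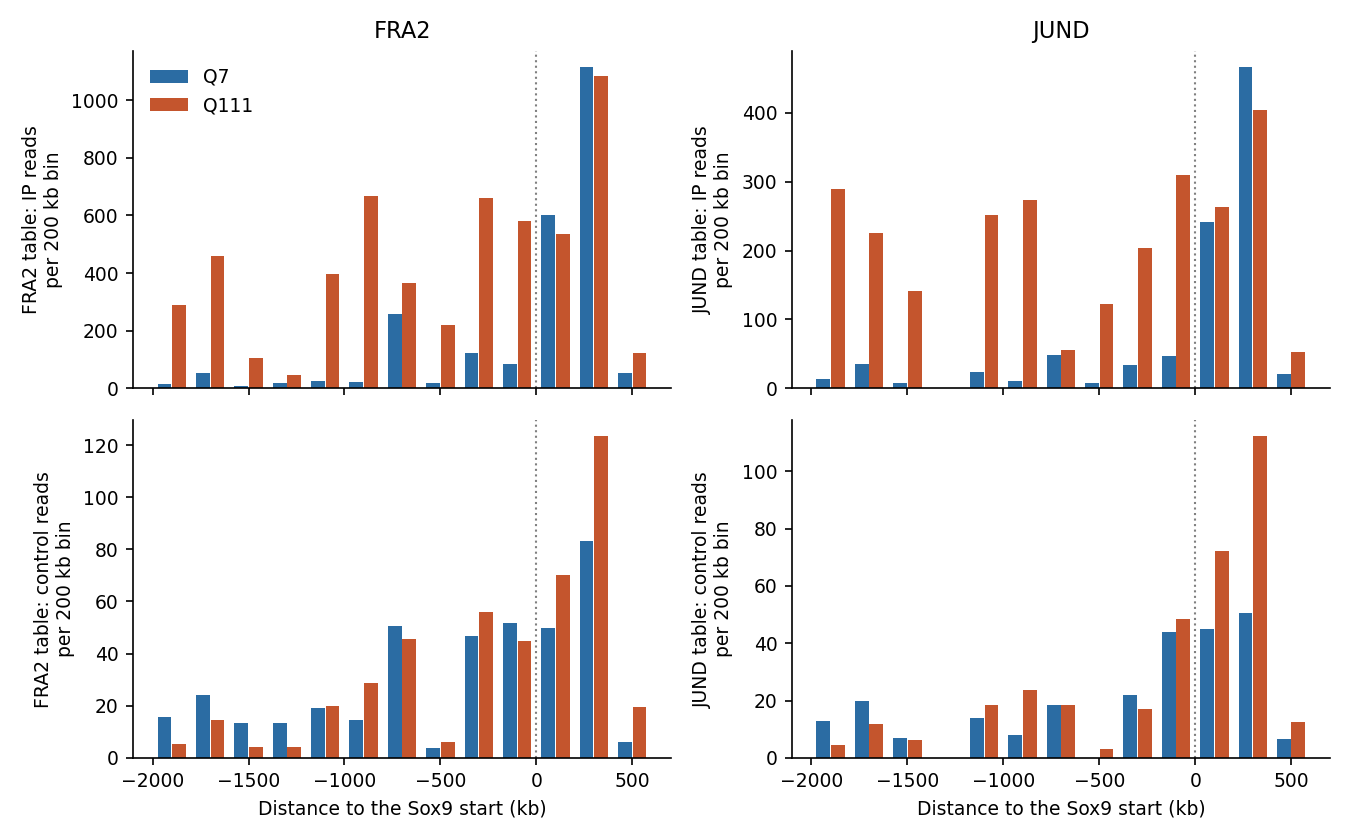
Summed reads of the events in each 200 kb bin of distance to the Sox9 start, Q7 in blue and Q111 in orange, for the immunoprecipitate (upper panels) and the control columns of the same tables (lower panels). Each bar is the sum of 1 pooled library, on axes that start at 0. In the immunoprecipitate Q111 exceeds Q7 in each filled upstream bin, while in the control columns either line is higher, depending on the bin. The control columns hold reads times a factor per library, so the height of Q7 against Q111 there includes the factors.

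Control reads, which the choice of the window did not use, did not follow the immunoprecipitated reads. They did enter the listing of events, through the caller's score against control. Upstream, 54 of 61 FRA2 events and 35 of 36 JUND events were listed through Q111 alone. The Q111 control values at those events are therefore not independent of the listing. The deposited control values are reads times a factor per library, so their sums cannot be compared between the lines as read counts. At the 61 upstream FRA2 events these values summed to 252.0 in Q7 and 228.6 in Q111, and at the 36 upstream JUND events to 145.9 and 151.9. Over all events the control values were higher in Q111, by 0.409 (FRA2 table) and 0.735 (JUND table) on the log2 scale, differences that include the factors. Relative to that, the upstream control ratio was lower in Q111 (-0.549 and -0.677) and the downstream ratio slightly higher (0.208 and 0.211). A factor per library cancels in this comparison. Relative to all events, control reads upstream thus lay lower in Q111 where FRA2 and JUND reads lay higher. This relative ratio also varied outside the window. In the 2.4 Mb beyond the Kcnj2-side border it was -0.306 (FRA2 table) and -0.266 (JUND table), and beyond the far border 0.536 and 0.737. The part of control reads in the result was not tested beyond the alternatives that scale by or subtract them. Under those alternatives the counts and medians of the window kept their direction.

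FRA2 and JUND folds at shared sites were compared next. The window was chosen on both, so their likeness within it is a description. There were 46 pairs of a FRA2 and a JUND event that were each other's nearest within 100 bp, with a median separation of 14 bp and a largest one of 84 bp. Their folds had the same sign in 44 pairs (95.7%), as did 84.8% of the 35176 such pairs in the whole tables. In the whole tables both were at least 2-fold higher in Q111 in 15.9% of pairs and in Q7 in 18.2%. In 33 of the 46 pairs of the window both were at least 2-fold higher in Q111. In 4 both were at least 2-fold higher in Q7, and in 8 both lay within 2-fold. In the remaining pair, 368.3 kb downstream, JUND alone passed 2-fold, with 31 and 15 reads. The 2 pairs of opposite sign, 222.5 and 324.7 kb downstream, lay within 2-fold for both factors. The log2 folds of a pair differed by a median of 0.543 (0.404 over all pairs of the whole tables) and by less than 1 in 34 pairs. The antibodies were applied to the same lines, so the FRA2 and JUND differences share the cells and are not independent replicates of each other.

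**Figure D5:**
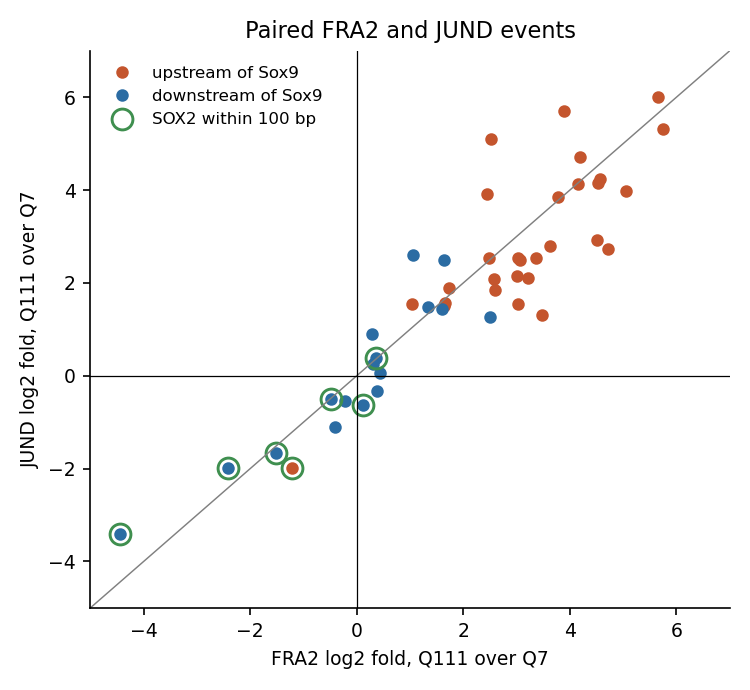
Log2 fold (Q111 over Q7) of JUND against that of FRA2 for the 46 pairs, upstream pairs in orange, downstream pairs in blue and pairs with a SOX2 event within 100 bp of the FRA2 event ringed in green. The diagonal is equality. Of the pairs 44 share a sign, and 5 of the 7 ringed pairs lie in the lower left, where both factors were higher in Q7, 4 of them by at least 2-fold. All 7 ringed pairs were marked present in Q7, and the share for such pairs over the whole tables was not computed.

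The 40 FRA2 events without a JUND partner were weaker, with a median of 40 reads over both lines against 93.5 for paired ones, and 29 of them were at least 2-fold higher in Q111 and 3 in Q7. Of the 11 unpaired JUND events 10 were at least 2-fold higher in Q111. Among all events of the window, paired or not, these shares toward Q111 were 72.1% (FRA2) and 75.4% (JUND), beside 24.2% and 18.7% in the whole tables. The share among unpaired events of the whole tables was not computed. The share of FRA2 events with a JUND event within 100 bp was 53.5% in the window and 55.3% in the whole table, and the reverse share was 80.7% and 75.6%. Both shares were thus near those of the whole tables.

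SOX2, mapped in Q7 alone, was scarce in the desert. The window held 3.75 SOX2 events per Mb, beside 14.2 per Mb on the rest of chromosome 11. Upstream there were 2 events, or 1.03 per Mb, and downstream 7 events, or 15.2 per Mb. In the same line, Q7, events marked present upstream numbered 7 for FRA2 (3.61 per Mb) and 1 for JUND (0.515 per Mb), and downstream 17 (37.0 per Mb) and 13 (28.3 per Mb). On the rest of chromosome 11 (116.29 Mb), 3040 FRA2 and 2370 JUND events were marked present in Q7. All 3 factors were sparse upstream in Q7, but FRA2 and JUND reads chose the window and SOX2 events did not. For FRA2 and JUND this scarcity is therefore a description only. The strongest SOX2 events lay 33.1 and 32.6 kb downstream of the Sox9 start, at 112673073 with 92 reads and at 112672603 with 81 reads. They were also the only SOX2 events in the window whose deposited −log10 q-value reached 5 (22.25 and 14.99). The first coincided, at 26 bp and 19 bp, with the FRA2 and JUND events that were 21.8-fold and 10.6-fold higher in Q7.

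The other SOX2 events were weak. The upstream ones had 24 reads at 112025471 and 27 reads at 112035083, both inside the 20.5-kb stretch where FRA2 was mostly lower in Q111. Downstream there were 22 reads at 112685671, 23 at 112759143, 27 at 112924652 and 25 at 113005302, and 21 at 112862501, which was named to complete the set. No SOX2 event was listed over the 637.5 kb from 604.9 kb upstream to 32.6 kb downstream of the Sox9 start, a span that includes the gene's start.

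Because SOX2 was mapped in Q7, its overlap was counted among FRA2 and JUND events marked present in Q7. A SOX2 event lay within 100 bp at 1 of 7 such FRA2 events upstream, 6 of 17 downstream and 31.0% in the whole table. For JUND it was 1 of 1 upstream, 6 of 13 downstream and 44.5% in the whole table. These numbers are too small to separate the upstream side from the table. Of the 7 FRA2 events so placed, 4 were at least 2-fold higher in Q7 (604.9 kb upstream, and 33.0, 45.7 and 284.6 kb downstream) and 3 lay within 2-fold (119.1, 222.5 and 365.3 kb downstream), and their JUND partners divided in the same way. All of these sites were marked present in Q7 for FRA2 and JUND, so their folds are not independent of the line in which SOX2 was mapped. Over the whole tables, at any distance from SOX2, 22.6% of FRA2 and 25.0% of JUND events were at least 2-fold higher in Q7. The share among events near SOX2 was not computed there, so these 7 sites do not tie SOX2 to a direction. SOX2 in Q111 was not analysed here.

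The events just inside and just outside the borders were as follows. On the Kcnj2 side the first FRA2 event inside, at 110742507, had 0 and 48.1 reads, and the nearest outside, at 110698169, had 24 and 28 (1.13-fold). For JUND, the first inside had 2.1 and 49.6 reads and the nearest outside, at 110638697, had 16.7 and 30.6 (1.72-fold). On the far side, FRA2 had 8 and 26 reads at 113076316 inside and 30 and 6 at 113116320 outside. JUND had 7 and 21 reads at 113076326 inside and 28 and 28 at 113127092 outside. SOX2 events nearest to the borders outside, at 110643351 and 113116282, had 25 and 28 reads.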

How the data were processed

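ChIP-seq of FRA2, JUND, SOX2 and IgG was deposited as 1 event table per factor. Reads were aligned with Bowtie 0.12.7 to mm9, per the submitters' processing notes. The event caller GPS is named with the tables, without a version in the sources used here. Deposited immunoprecipitate columns hold expected counts of reads per event, unscaled, with 78.0% to 89.6% of values whole. The deposited control columns hold a signal, control reads times a factor per library, from a library that the headers leave unnamed. Alternatives that scale by or subtract control reads used this signal. The deposited q-value is given as −log10, and all listed events reach at least 2. Present marks are the authors' own. Of 41 value columns 22 were not used. No separate IgG table was used here.

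Groups came from the sample titles. Per table, log2 folds (Q111 over Q7, pseudocount 0.5) were scaled by the median over events marked present in both lines (0.046 for FRA2 and 0.073 for JUND). Fold intervals (95%, Clopper-Pearson) were taken from the Q111 share of reads after rounding to whole reads. Where Q7 rounded to 0, the bound uses a floor of 3 reads. With 1 pooled sample per group no test was made. The calculation was tested on simulated data. Python 3.11.15, numpy 2.4.6, pandas 2.3.3, scipy 1.17.1 and matplotlib 3.10.9 were used.

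Named events are, for FRA2 and for JUND, the 8 with the most reads, the 8 with the interval farthest toward Q111 and the 4 farthest toward Q7, and, with SOX2, the nearest 2 on each side of the Sox9 start and the nearest on each side of each border. SOX2 adds its 8 events with the most reads. The window, the members and these rules were chosen with earlier results of these data known. Alternatives changed the scaling, pseudocount, control handling, event filters, merging of adjacent events, distance limit and borders. Motifs and sequences were not analysed here.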

Additional observations from a re-analysis of the deposited data

How the results depend on the processing

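No paired analysis was possible because each group is 1 pooled sample, and for the same reason no replicate could be left out. The counts and medians of the window kept their direction under each alternative, and so did every named event that differed by at least 2-fold. Scaling by control reads turned 5 named events within 2-fold: FRA2 at 112643476 (-0.07), 112759091 (-0.006), 112862546 (-0.25) and 112922510 (-0.05), and JUND at 112922512 (-0.40). Scaling by control reads moved the median of all events by -0.362 (FRA2) and -0.662 (JUND) on the log2 scale and gave 56 FRA2 and 32 JUND events at least 2-fold higher in Q111, 8 JUND events higher in Q7 and a JUND median of 1.24. Under it, 4 of the named events counted as different fell under 2-fold. Subtracting control reads moved the JUND median of all events by -0.127 and raised the window's medians to 3.27 (FRA2) and 2.85 (JUND), and scaling by read totals moved that JUND median by 0.117. A pseudocount of 5 gave a FRA2 median of 1.52. Leaving out events under 40 reads left 39 FRA2 (35 upstream) and 22 JUND events (19 upstream) higher in Q111, from 62 and 43. The median log2 folds of the window fell from 2.153 to 1.728 (FRA2) and from 1.899 to 1.545 (JUND). Events with few reads thus carried part of the difference. A −log10 q-value of at least 5 left 19 JUND events higher in Q111, all 19 upstream, 3 higher in Q7, a median of 2.54, and 2 SOX2 events. A distance limit of 1 kb gave all 9 SOX2 events a FRA2 or JUND neighbour. Moving the Sox9 start by 5 kb, counting upstream events and leaving out the lowest event of the first 200 kb downstream were added after seeing the data, and the move gave 54 or 55 FRA2 and 35 or 37 JUND events. Depth limits the desert's folds, since few Q7 reads make wide intervals.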

Other observations

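The flanks of equal width were intermediate on the Kcnj2 side and unlike the desert on the far side. In the 2.4 Mb beyond the Kcnj2-side border, 26 of 68 FRA2 events (38.2%) were at least 2-fold higher in Q111 and 6 in Q7, with a median log2 fold of 0.42, and 15 of 48 JUND events were higher in Q111 and 7 in Q7. In the 2.4 Mb beyond the far border, 15 of 75 FRA2 events (20.0%) were higher in Q111 and 21 (28.0%) in Q7, with a median of -0.227, and the JUND counts were 11 and 14 of 62. Over the rest of chromosome 11 the FRA2 shares were 24.0% and 18.4% of 4019 events, and the JUND shares 18.4% and 18.2% of 3083.

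SOX2 events in Q7 numbered 21 in the Kcnj2-side flank (8.75 per Mb) and 30 in the far flank (12.5 per Mb), beside 9 in the window. FRA2 events over both lines were listed at 28.3 and 31.2 per Mb in the flanks and at 31.4 per Mb in the desert, where 54 of 61 were marked present in Q111 alone.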
